A study of Danio rerio with 3 samples.

Results

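Neuropeptide and pituitary hormone genes encode secreted peptides made by small groups of cells in the brain and in the pituitary gland below it. The genes described here were cart3, npy and hcrt, which encode brain neuropeptides, and pomca, gh1 and prl, which encode pituitary hormones. They were found as every probe annotated with 1 of these symbols, which gave 6 genes with 1 probe each out of 15548 named genes and 43603 probes. The members were chosen by their log ratios between slc2a10 MO and control embryos on these same arrays, so the ratios are described without a test.

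The arrays compared whole zebrafish embryos (Danio rerio) at 48 hours post fertilization. Wild type embryos of strain Ab had been injected as fertilized eggs with 7.5 ng of a morpholino (MO), an antisense oligomer, against slc2a10, or with 5 ng of a control MO. SLC2A10 encodes GLUT10, a member of the facilitative glucose transporter family whose loss causes arterial tortuosity syndrome in humans. Only slc2a10 MO embryos with a visible Class 1 phenotype were kept, so dose and sorting differed between the groups along with the target. Each of 3 slc2a10 MO replicates held RNA of 10 to 15 embryos and was hybridised against the same pool of control MO RNA, which counts as 1 control sample. The slc2a10 MO sample carried Cy3 on replicates 1 and 3 and Cy5 on replicate 2.

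The oligomers are shown because the groups were designed to differ in them. The capitals mark the letters that pair with GTAAGT, a common start of an intron, since the slc2a10 MO was designed against the splice donor of exon 2.
slc2a10 MO: caaataaagtccACTTACttggt
slc2a10 MO target as its reverse complement: accaaGTAAGTggactttatttg
control MO: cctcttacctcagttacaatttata

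Each probe had 1 log ratio per array, read as log2. Replicate 2 correlated over all features at -0.65 with replicate 1 and at -0.69 with replicate 3, against 0.48 between replicates 1 and 3, so the deposited ratios were taken to follow the dyes, and replicate 2 was multiplied by -1. A dye bias that outweighed the sample difference, in ratios set to 1 direction before deposit, would also correlate in this way and cannot be told apart here. The sample titles name slc2a10 MO first for replicates 1 and 3 and the control MO pool first for replicate 2, an order that follows the dyes. They do not state which channel is the numerator, so the labels do not settle it. Signs are therefore given relative to slc2a10, whose probe read 0.50, 0.42 and 0.47 on replicates 1, 2 and 3. A positive value has the sign of slc2a10 (the slc2a10 side), and a negative value lies on the opposite side. Whether the slc2a10 side was higher in slc2a10 MO embryos or in the control pool is not known, and an MO that blocks splicing need not change the amount of transcript. Only ratios were used, without intensities, so levels cannot be given and it is unknown which probes were above background. A ratio near 0 is thus not shown to be a measurement of transcript. In RNA of whole embryos, fewer cells of a type and less RNA per cell cannot be told apart.

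Neuropeptides and peptide hormones are made as longer precursors, cut by proprotein convertases inside dense core granules, and released to act on receptors that are mostly G protein-coupled. In the fish hypothalamus, as in mammals, npy (neuropeptide Y) is known to promote feeding, whereas peptides of the CART family (cocaine- and amphetamine-regulated transcript) and melanocortins cut from proopiomelanocortin limit it. Hypocretin promotes wakefulness. In the pituitary, proopiomelanocortin is cut into adrenocorticotropic hormone, growth hormone drives body growth and prolactin regulates salt and water balance in fish.

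Cart3 stood far from the other members. Its log2 ratios were -1.28, -1.34 and -1.07 on replicates 1, 2 and 3, a mean of -1.23 ± 0.14 (SD, n = 3), a 2.35-fold difference. All arrays placed it on the side opposite to slc2a10, and it ranked 11 among 15548 named genes counted from the opposite end. As deposited, before replicate 2 was turned, the 3 values were -1.28, 1.34 and -1.07.

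Npy, the feeding peptide, lay on the slc2a10 side with 0.24, 0.22 and 0.20. The mean was 0.22 ± 0.02 (SD, n = 3), a 1.17-fold difference. Its spread over arrays was smaller than that of most genes: 4.91% of named genes had a lower SD. Cart3 and npy thus had opposite signs on every array. Both were chosen by these values, so this is a description only, and a link to feeding was not tested.

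Hcrt, the precursor of the hypocretins, had -0.04, -0.03 and 0.12. The mean of 0.01 ± 0.09 (SD, n = 3) was smaller than its spread. Replicates 1 and 2 were just below 0 and replicate 3 just above it, so no side can be named.

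Among the pituitary hormones, gh1, encoding growth hormone, was on the slc2a10 side on all arrays with 0.11, 0.28 and 0.26. The mean was 0.21 ± 0.09 (SD, n = 3), or 1.16-fold, with replicate 1 the lowest. Pomca, the precursor of adrenocorticotropic hormone and the melanocortins, had -0.08, 0.06 and 0.29. Its mean of 0.09 ± 0.19 (SD, n = 3) was smaller than its spread, and replicate 1 differed in sign from the others. Without replicate 3, its highest array, the mean was -0.01.

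Prl, encoding prolactin, was the least even of the members. It had 0.44, 0.07 and -0.14, with a mean of 0.12 ± 0.29 (SD, n = 3), and 98.2% of named genes had a lower SD. Replicates 1 and 3, which shared a dye order, were its highest and lowest arrays. Without replicate 1 the mean was -0.04 and without replicate 3 it was 0.25.

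In all, 3 of the 6 members (cart3, npy and gh1) had the same sign on the 3 arrays, against 50.1% of all named genes, a share that the choice of members does not allow to be read further. From the opposite side upwards the means ran cart3, hcrt, pomca, prl, gh1 and npy. The array ranges of all neighbours in this order overlapped except those of cart3 and hcrt. The plot of member values by array shows this gap.

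**Figure D1:**
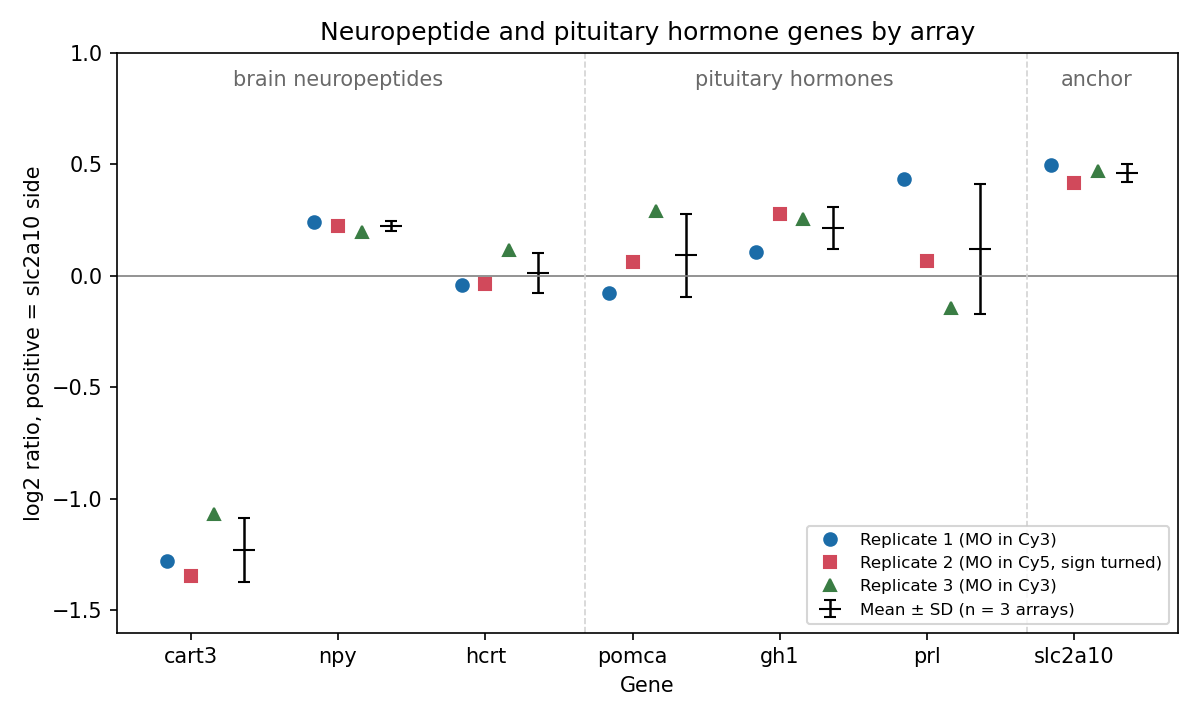
Log2 ratio (y axis, positive on the slc2a10 side) of the 6 members and of slc2a10 (x axis), with 1 point per array and the mean ± SD of 3 arrays beside it. Cart3 lies at -1.23 on average, with all points below -1, while the means of the other members lie between 0.01 and 0.22.

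Likeness between genes was measured as the Euclidean distance over the 3 log2 ratios, which is a coarse measure because each gene has only 3 values. The 3 genes nearest to cart3 were ctsh, encoding cathepsin H, at a distance of 0.04, psap, encoding the saposin precursor, at 0.15, and the embryonic beta globin gene hbbe3 at 0.28. The nearest to npy were zbtb8a (0.01), cope (0.02) and yipf4 (0.02). The nearest to gh1 were pik3r3a (0.02), the type IX collagen gene col9a3 (0.02) and ccl44 (0.03). For pomca they were gip, atf4b and pygo1 (all 0.04), for prl rpz4 (0.04), qdprb.4 (0.05) and cox6a2 (0.06), and for hcrt rpp14 (0.003), wu:fe05a04 (0.009) and trmo (0.01). No member was among the 3 nearest genes of another, but with 15548 named genes compared this says little about likeness between members.

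The means of the paralogs of the members lay between -0.17 and 0.12. The CART paralogs cart2 and cart4 had 0.05 ± 0.03 and -0.17 ± 0.08 (SD, n = 3), against -1.23 for cart3. The 2 probes of cart4 disagreed, at -0.35 and 0.02. The second proopiomelanocortin gene pomcb had 0.08 ± 0.05, the second prolactin gene prl2 had 0.12 ± 0.16, and the somatolactin genes smtla and smtlb, which belong to the growth hormone and prolactin family, had 0.01 ± 0.06 and -0.02 ± 0.30. None of these 6 passed the limma test (adjusted p from 0.078 to 0.91), which 19.3% of all named genes passed, and 1, cart4, had an unadjusted p under 0.05. Smtlb read 0.32, -0.22 and -0.18, and without replicate 1 it had -0.20 and passed (limma adjusted p = 0.044). With array weights, cart4 (-0.13) and prl2 (0.21) passed (limma adjusted p = 0.047 and 0.019).

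The other pituitary hormone genes lay within the same range. Of 7 measured genes among the 10 symbols of that list, which holds pomcb, prl2 and both somatolactins, limma called 0 at an adjusted p under 0.05 and 0 at an unadjusted p under 0.05. Over all 15548 named genes the adjusted calls made up 19.3% (11.1% slc2a10 side, 8.16% opposite), and 4880 had an unadjusted p under 0.05. The means of the 7 ran from -0.03 to 0.12 with a median of 0.03, beside 0.007 over all named genes. The shared glycoprotein hormone subunit gene cga had 0.07 ± 0.14 with 2 probes of different sign (-0.05 and 0.19). The thyrotropin subunit gene tshba had 0.03 ± 0.24 and the follicle-stimulating hormone subunit gene fshb -0.03 ± 0.09. Without replicate 1, 1 gene (smtlb) was called, and with array weights 1 (prl2).

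Receptors of the members spanned a similar range of means. Of 17 receptor genes measured for melanocortins, neuropeptide Y, hypocretin, growth hormone and prolactin, limma called 0 (adjusted p from 0.068 to 0.98), and 2 had an unadjusted p under 0.05. Over all 15548 named genes 19.3% were called and 4880 had an unadjusted p under 0.05. The means of the 17 ran from -0.18 to 0.12, with 12 above 0 and 5 below. The hypocretin receptor gene hcrtr2 had the most negative mean, -0.18 ± 0.10, and the growth hormone receptor genes ghra and ghrb had different signs (0.12 ± 0.08 and -0.13 ± 0.05). The melanocortin receptor gene mc4r, known for its part in appetite control, had 0.07 ± 0.14, and npy1r had -0.10 ± 0.12. The prolactin receptor gene prlra ranged from -0.23 on replicate 1 to 0.60 on replicate 3, while prlrb averaged 0.004 ± 0.12. Mc2r, encoding the receptor of adrenocorticotropic hormone, had -0.12 ± 0.14, and without replicate 1 it had -0.20 and passed (limma adjusted p = 0.045). With array weights hcrtr2, ghrb and mc2r on the opposite side and mc5ra on the slc2a10 side passed.

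**Figure D2:**
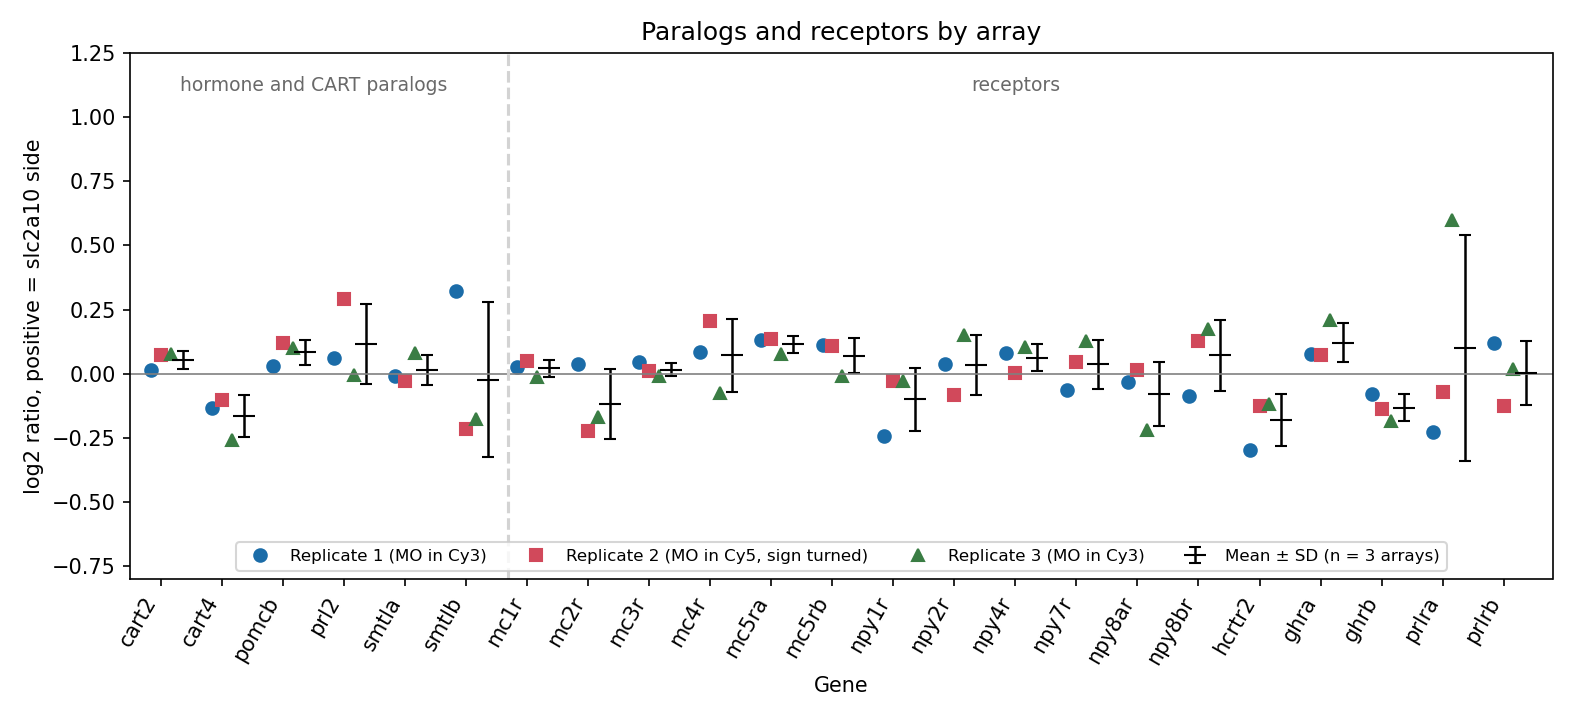
Log2 ratio (y axis, positive on the slc2a10 side) of 6 paralogs and 17 receptors of the members (x axis), with 1 point per array and the mean ± SD of 3 arrays. All means lie between -0.18 and 0.12, and single arrays stand apart for prlra and smtlb.

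A wider list of receptor genes also covered somatostatin, galanin, opioid and dopamine receptors and the melanocortin receptor accessory protein gene mrap. Of its 58 symbols 40 were measured, and 1 gene was called by limma and 4 had an unadjusted p under 0.05. The gene called was the galanin receptor gene galr2b, with -0.63, -0.29 and -0.29 on replicates 1, 2 and 3 and a mean of -0.40 ± 0.20 (limma adjusted p = 0.0081). The list median was 0.01 and 2.5% of its measured genes were called, beside 19.3% of all named genes. Of those 15548 genes 4880 had an unadjusted p under 0.05. Without replicate 1 there were 3 calls, and with array weights 8.

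Other brain neuropeptide genes went both ways. Of 76 symbols on this list, which also holds the tyrosine hydroxylase gene th (0.04 ± 0.04, not called), 37 were measured. There were 10 calls on the slc2a10 side and 4 opposite, together 37.8%, beside 19.3% of all named genes. The list median was 0.05. The 23 genes of this list that were not called had means on both sides of 0, from -0.18 to 0.16. Among them were the corticotropin-releasing hormone genes crha (-0.18 ± 0.18) and crhb (0.003 ± 0.16). The growth hormone-releasing hormone gene ghrh (0.02 ± 0.09) was not called either. On the slc2a10 side, as npy was, the tachykinin gene tac3a had 0.46 ± 0.14 and npvf, encoding RFamide peptides, 0.45 ± 0.14. With them were npffl (0.34 ± 0.18), the pituitary adenylate cyclase-activating peptide gene adcyap1b (0.32 ± 0.13), the somatostatin gene sst1.1 (0.28 ± 0.05) and trh, encoding thyrotropin-releasing hormone (0.26 ± 0.07). The opioid precursor genes penka (0.26 ± 0.05) and pdyn (0.25 ± 0.11) were on the same side (limma adjusted p from 0.002 to 0.023 for these 8).

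On the opposite side, as cart3 was, lay agrp, encoding agouti-related peptide, which antagonises melanocortin receptors. It read -0.24, -0.37 and -0.31 on replicates 1, 2 and 3, with a mean of -0.31 ± 0.06. Agrp and npy are made by the same hypothalamic neurons in mammals, and here they had opposite signs on every array. The others were npb, encoding neuropeptide B (-0.32 ± 0.07), and the opioid family precursor genes pnoca (-0.27 ± 0.09) and penkb (-0.19 ± 0.08), so that opioid precursors fell on both sides (limma adjusted p from 0.0054 to 0.042 for these 4). Without replicate 2, which alone had the swapped dyes, 5 of the 37 were called. Among the 12 named here, 7 then lost their call: adcyap1b, agrp, pdyn, penka, penkb, pnoca and trh (adjusted p from 0.057 to 0.11). Their means without replicate 2 ran from 0.25 (penka) to 0.29 (pdyn) on the slc2a10 side and from -0.28 (agrp) to -0.24 (penkb) opposite. The arrays left are part of the reported mean and share a dye order, so a similar size was largely built in. Pdyn and penkb also lost it without replicate 1 (0.18, adjusted p = 0.056, and -0.18, adjusted p = 0.082), and penkb without replicate 3 (-0.17, adjusted p = 0.15).

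Most pan-neuronal genes, measured as markers of neurons in general, lay on the slc2a10 side together with npy and most of the called peptides. Of 36 symbols 29 were measured, and 21 were called there and 1 opposite (75.9%, beside 19.3% of all named genes). The median was 0.33 overall and 0.37, 0.33 and 0.29 on replicates 1, 2 and 3. The synaptic vesicle and release genes snap25b (0.88 ± 0.16), sypb (0.73 ± 0.11), nsfa (0.63 ± 0.19) and vamp2 (0.53 ± 0.04) were among the 21, with gng3 (0.59 ± 0.12), sncb (0.57 ± 0.16), eno2 (0.56 ± 0.10) and stmn2a (0.55 ± 0.12). All of these 8 were larger than npy (limma adjusted p from 0.00016 to 0.0011). Nefmb, a neurofilament gene, was opposite (-0.25 ± 0.07, limma adjusted p = 0.015) and lost its call without replicate 3 (-0.23, adjusted p = 0.056). The 7 genes not called ran from -0.24 (inab) to 0.26 (nefma). Among them elavl3 (-0.14 ± 0.05) and inab were opposite on all arrays (limma adjusted p = 0.10 and 0.076). Syn1 and syt1b lay at 0.007 and 0.005, and syn2b (0.10) and tubb2 (0.17) on the slc2a10 side. The part of neuron number in the values of the peptide genes was not tested.

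Genes of prohormone processing and dense core granules were called in 8 of 18 measured cases from 25 symbols. This was 44.4%, beside 19.3% of all named genes, with 7 calls on the slc2a10 side and 1 opposite. Scg3, encoding the granule protein secretogranin III, had 0.68, 0.53 and 0.67 on replicates 1, 2 and 3, a mean of 0.62 ± 0.08. It was followed by the synaptotagmin gene syt4 (0.42 ± 0.22), the granin genes chgb (0.29 ± 0.16), chga (0.26 ± 0.20) and scg2b (0.23 ± 0.06), the carboxypeptidase E gene cpe (0.22 ± 0.08) and pcsk1nl, encoding an inhibitor of prohormone convertase (0.22 ± 0.07). The limma adjusted p of these 7 ran from 0.00032 to 0.045. The 2 probes of cpe differed in size (0.07 and 0.37). Opposite was ptprna, encoding a granule membrane protein, at -0.39 ± 0.04 (limma adjusted p = 0.0017), with 2 probes of different size (-0.64 and -0.14). The convertase gene pcsk1 (0.04 ± 0.06) and the peptide amidating enzyme gene pam (0.07 ± 0.03) did not pass. The 10 genes of this list that were not called had means on both sides of 0, from -0.17 to 0.11. Without replicate 2, 3 were called, and chga, chgb, cpe, pcsk1nl and scg2b missed the threshold (adjusted p from 0.057 to 0.19) with means from 0.20 (pcsk1nl) to 0.32 (chga). Without replicate 1, 5 were called, with chga (0.15), cpe (0.18) and pcsk1nl (0.20) missing it (adjusted p from 0.053 to 0.11). Without replicate 3 cpe missed it at 0.22 (adjusted p = 0.067).

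Pituitary transcription factor genes were measured for 12 of 19 symbols, with 3 calls on the slc2a10 side and 1 opposite. The share called was 33.3%, beside 19.3% of all named genes, and the median was 0.06. Lhx4, a LIM-homeodomain factor of pituitary development, had 0.45 ± 0.07. The paralogs six3a (0.42 ± 0.13) and six3b (0.39 ± 0.09), known for forebrain and eye patterning as well, were on the same side (limma adjusted p from 0.001 to 0.0028). The proneural gene ascl1a was opposite at -0.31 ± 0.05 (limma adjusted p = 0.0053), and without replicate 2 it was -0.28 and missed the threshold (adjusted p = 0.053). The 8 genes of this list that were not called had means on both sides of 0, from -0.09 to 0.09. Pou1f1, the factor known to drive growth hormone and prolactin expression, had 0.17, 0.06 and 0.03 on replicates 1, 2 and 3, a mean of 0.09 ± 0.07 that did not pass (limma adjusted p = 0.34). Its sign was that of gh1 on all arrays, and its highest array, replicate 1, was the lowest of gh1 and the highest of prl.

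Transcription factor genes of hypothalamic peptide neurons were measured for 19 of 23 symbols, with 6 calls on the slc2a10 side and 2 opposite. The share called was 42.1%, beside 19.3% of all named genes, and the median was 0.08. Rx3, needed for eye and hypothalamus formation, had 0.60, 0.61 and 0.74 on replicates 1, 2 and 3, a mean of 0.65 ± 0.07. The others there were lhx9 (0.33 ± 0.13), which promotes hypocretin neuron specification, nkx2.4a (0.27 ± 0.06), foxb1a (0.25 ± 0.04), hmx2 (0.19 ± 0.05) and hmx3a (0.18 ± 0.03). Dbx1a (-0.28 ± 0.08) and pou3f3a (-0.29 ± 0.08) were opposite. The limma adjusted p ran from 0.00024 to 0.038 over the 8. Without replicate 2 only rx3 was called and the other 7 missed the threshold (adjusted p from 0.056 to 0.26), with means from 0.18 (hmx2) to 0.28 (nkx2.4a) and of -0.26 for both dbx1a and pou3f3a. Hmx2 and hmx3a missed it whichever replicate was left out, with means from 0.17 to 0.22 (adjusted p from 0.057 to 0.26). Otpb (0.15 ± 0.14) and sim1a (0.03 ± 0.10), which specify neuroendocrine neurons, did not pass. The 11 genes of this list that were not called had means on both sides of 0, from -0.10 to 0.15.

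**Figure D3:**
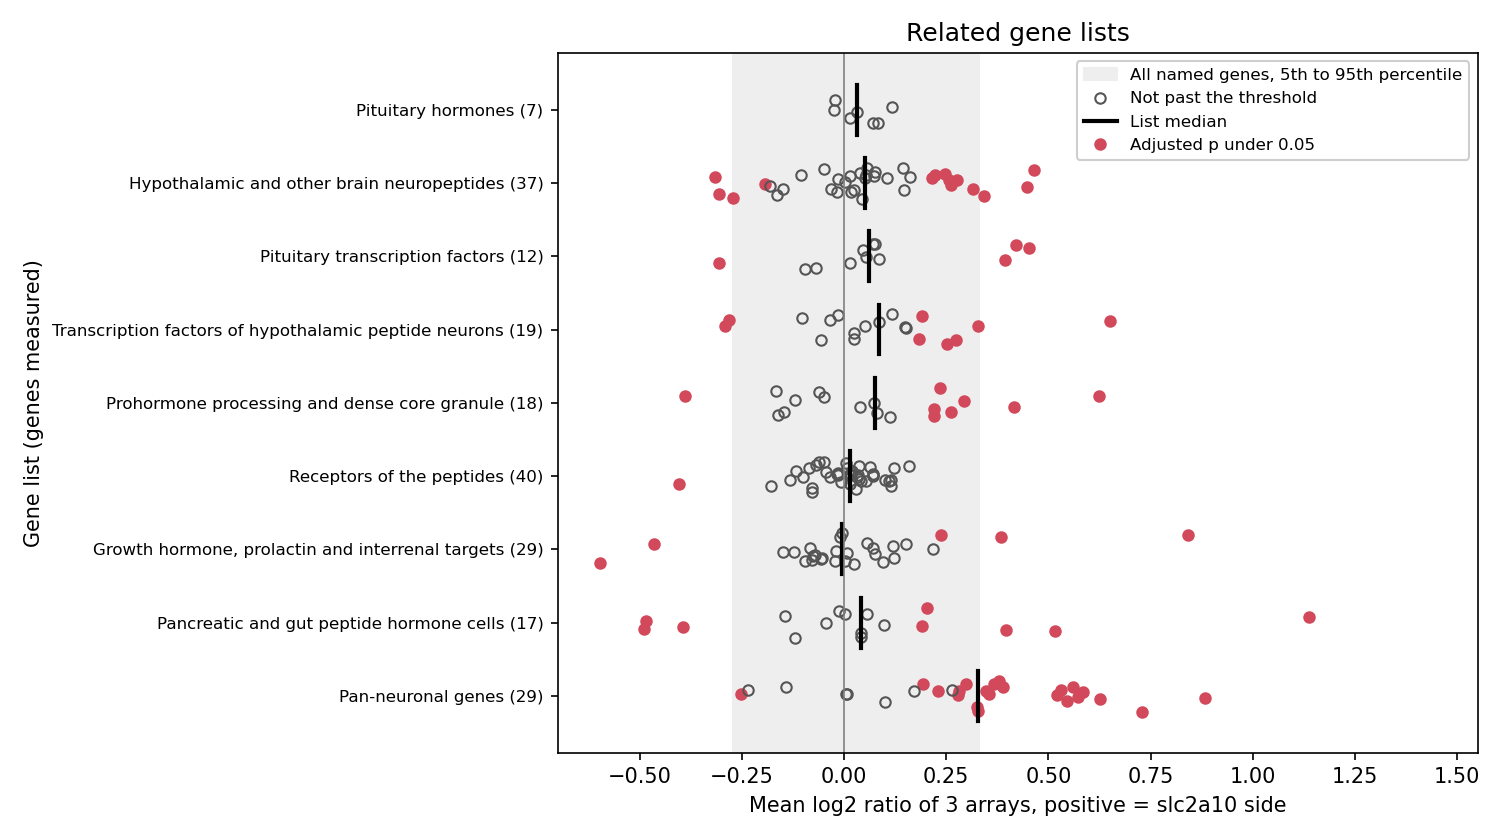
Mean log2 ratio of 3 arrays (x axis, positive on the slc2a10 side) for the genes of 9 related lists (y axis), with filled points at an adjusted p under 0.05, open points above it, black bars at the list medians and grey shading from the 5th to the 95th percentile of all named genes. The pan-neuronal median lies at 0.33, while the medians of the other lists lie between -0.005 and 0.08.

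Downstream of the pituitary, genes of growth hormone, prolactin and interrenal (adrenal-like) signalling were called in 5 of 29 measured cases from 40 symbols, 3 on the slc2a10 side and 2 opposite. This share (17.2%) was near the 19.3% of all named genes, so the count is not read as a result about the list. The list median was -0.005. Fkbp5, a glucocorticoid-induced co-chaperone gene, read 0.59, 0.86 and 1.08 on replicates 1, 2 and 3, a mean of 0.84 ± 0.25. Hsd11b2, encoding an enzyme that inactivates cortisol, had 0.38 ± 0.23, and jak2a, encoding a kinase used by growth hormone and prolactin receptors, 0.24 ± 0.06 (limma adjusted p from 0.00057 to 0.017 for these 3). Igfbp1a, encoding an insulin-like growth factor binding protein, was opposite at -0.60 ± 0.03, as was the steroid synthesis gene cyp17a1 at -0.46 ± 0.09 (limma adjusted p = 0.00025 and 0.0011). Their paralogs igfbp1b (-0.08) and cyp17a2 (-0.01) were not called. Neither were the steroid synthesis genes cyp21a2 (-0.005), hsd3b1 (-0.09), hsd3b2 (-0.08) and star (-0.12). The 24 genes of this list that were not called ran from -0.15 to 0.22. Igf1, the main growth hormone target, had 0.10 ± 0.03 (limma adjusted p = 0.25), the glucocorticoid receptor gene nr3c1 -0.05 ± 0.10 and the glucocorticoid target tsc22d3 0.002 ± 0.08. Jak2a missed the threshold without replicate 2 (0.27, adjusted p = 0.064) and without replicate 3 (0.22, adjusted p = 0.061).

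Peptide hormone cells outside the brain were measured as the other cells that make such precursors. The list of pancreatic and gut hormone cells had 17 measured genes of 22 symbols, with 5 calls on the slc2a10 side and 3 opposite. The share called was 47.1%, beside 19.3% of all named genes, and the median was 0.04. The genes called on the slc2a10 side were mostly transcription factors that neurons also use: neurod1 (1.14 ± 0.04), isl1a (0.52 ± 0.13), pax6b (0.40 ± 0.09) and pax6a (0.19 ± 0.07). The fifth was the glucagon gene gcga at 0.20 ± 0.07, where the 2 probes differed in sign (-0.05 and 0.46). The 5 probes of pax6a ran from -0.04 to 0.39, with 4 on the slc2a10 side. Opposite were the somatostatin gene sst2 (-0.48 ± 0.17) and the paralogs insm1a (-0.49 ± 0.06) and insm1b (-0.39 ± 0.21). These paralogs also encode transcription factors that neurons use, so such factors fell on both sides. Sst2 was thus on the other side from sst1.1, which is listed here with the brain neuropeptides. Whole embryo RNA does not tell which tissue either value came from. The limma adjusted p ran from 1.5e-05 to 0.043 over the 8. The insulin gene ins had 0.04 ± 0.22 and did not pass (limma adjusted p = 0.79). The 9 genes of this list that were not called, ins among them, had means on both sides of 0, from -0.15 to 0.10. The others were insb (0.003), ghrl (0.04), gip (0.10), nkx2.2a (0.06), pdx1 (-0.01), rfx6 (-0.04), pyya (-0.12) and mnx1 (-0.15). Without replicate 2, 5 were called, with gcga (0.20), insm1b (-0.28) and pax6a (0.18) missing the threshold (adjusted p from 0.059 to 0.25). Without replicate 1 gcga and pax6a missed it, both at 0.16 (adjusted p from 0.086 to 0.099).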

How the data were processed

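Two-colour array data were used as 1 value per probe and array. The authors deposited log ratios of the 2 channels, read here as log2, with base, direction and normalization not given in the sources used here. The largest size was 4.85, and sizes would be understated if these were natural logs. The submitters' processing notes name Partek. Column medians were -0.0016, -0.0076 and -0.0045. Of 43648 features, 45 control spots were left out. Of 43603 probes, 23717 had 1 gene symbol, 0 several and 19886 none. Symbols came from GEO's platform annotation, updated through the RefSeq table of GRCz12tu.

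Probes of a gene were averaged, and limma 3.58.1 in R 4.3.3 tested the mean of 3 arrays against 0 (lmFit, eBayes, Benjamini-Hochberg adjusted p under 0.05 over 15548 genes). With 1 control pool the spread among control embryos stays out of the test, and precision is limited by having 3 arrays. The test held no dye term, and replicates 1 and 3 shared a dye order, so the mean does not fully cancel a dye bias. No dim probes could be filtered. Of 309 symbols on the lists, 208 were measured. Members and lists were chosen with earlier results of these data known. Named genes were all members, their paralogs and receptors, slc2a10, up to 8 genes per side and list that were called with 1 sign on 3 arrays, and the 3 nearest genes of each member. Pcsk1, pam, pou1f1, otpb, sim1a, igf1, nr3c1, tsc22d3, ins, th, mrap, cga, tshba and fshb were named after their values were seen. So were the pan-neuronal genes inab, nefma, elavl3, syn1, syt1b, syn2b and tubb2. The same holds for crha, crhb, ghrh, igfbp1b, cyp17a2, cyp21a2, hsd3b1, hsd3b2 and star. It also holds for insb, ghrl, gip, nkx2.2a, pdx1, rfx6, pyya and mnx1.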

Additional observations from a re-analysis of the deposited data

How the results depend on the processing

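Where replicate 2 kept its deposited sign, limma called 0 of all named genes (28 at an unadjusted p under 0.05) and 0 of the 208 listed genes (1 at an unadjusted p under 0.05). The means were then -0.33 for cart3, 0.027 for gh1, 0.072 for npy and 0.026 for insm1b, which changed sign. An ordinary t statistic called 2 of all named genes (3262 at an unadjusted p under 0.05) and 0 listed genes (70 unadjusted). Limma called 2996 and 70 with the reported settings and 5211 of all named genes with array weights, where the swapped array had the largest weight (2.81). Leaving out 1 replicate gave 1556 to 3211 of all named genes and 39 to 66 listed genes, both lowest without replicate 2. Cart3, npy and gh1 had the same sign on all arrays, so leaving out or weighting arrays could not change the sign of their means. A dye term could not change it either, because that fit only weights the arrays anew. With the deposited sign of replicate 2 these means also kept their sign. This says little, because replicates 1 and 3 together outweighed replicate 2. Pomca, prl and hcrt changed sign when single arrays were left out. Their means were -0.01 for pomca without replicate 3, -0.04 for prl without replicate 1 and -0.04 for hcrt without replicate 3. Of 56 called genes named, 24 missed the threshold without replicate 2 and 11 with a dye term. Those lost with a dye term were pdyn, penkb, hmx2, hmx3a, chga, cpe, pcsk1nl, jak2a, gcga, pax6a and nefmb. Robust eBayes, the median over probes and equal array spread changed no call among these 56. The cause was not tested. No paired analysis was possible because all arrays share 1 control pool.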
